A study of Mus musculus with 2 samples.

Results

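The sites described here are stretches of spleen chromatin open to DNase I that lie more than 100 kb from every annotated transcription start site (TSS). Overlapping peaks of 2 libraries were merged into 146575 sites, of which 73150 held a peak of both libraries, and 667 of these 73150 (0.912%, exact binomial 95% interval 0.844 to 0.983) had their midpoint over 100 kb from every TSS of the mm10 GENCODE M21 annotation, whatever the biotype of the gene. Another 28554 sites lay 5 to 100 kb from the nearest TSS and serve as the comparison, and 43929 lay within 5 kb. The members were chosen by measured values, the peak calls of the libraries, together with position. Distances ran from 100075 to 600503 bp with a median of 132139 bp, 107 sites were over 200 kb from a TSS, and 1 was over 500 kb away.

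The study measured DNase-seq in spleen of male B6CASTF1/J mice aged 10 days, an F1 cross between the C57BL/6 and CAST/EiJ strains, with no treatment or altered gene in the labels. There was 1 group of 2 libraries, labelled biological replicates 1 and 2. The labels give the libraries different animal numbers and 1 shared donor identifier, so the spread between them covers 2 samples of a whole organ and may be partly technical. With 1 group there was no contrast to test. Shares below carry exact binomial (Clopper-Pearson) 95% intervals, which cover counting error only and treat sites as separate although neighbours share chromatin and libraries.

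DNase I cuts DNA where nucleosomes are absent or loosened, so its peaks mark promoters, enhancers, insulators and other protein-bound elements. Sites far from any promoter are usually classed as enhancers or as sites of CTCF, the zinc-finger protein at the anchors of chromatin loops. A footprint is a short stretch inside a peak with fewer cuts than its surroundings, as a bound protein can leave. The spleen of a young mouse makes red cells and holds B cells, T cells, macrophages and stroma, and a peak of the whole organ does not say which cells were open.

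The peak lists held 130476 peaks in replicate 1 and 95847 in replicate 2, and 404781 and 276537 footprints. The number of reads is unknown. Signal is the height the authors gave each peak, so its scale belongs to a library and the libraries are set side by side by their ratios. As a check of the label, 20 of 20 red cell genes on a marker list had a promoter peak in both libraries, as did 19 of 22 B cell, 15 of 22 T and NK cell and 17 of 22 myeloid genes, against 2 of 7 genes of other tissues and 60.5% of all 21911 coding genes. The share of T and NK cell genes, 68.2%, was close to the last.

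The strongest remote sites are shown first as sequence, because they are the members that a reader could place by eye. Each line gives the mm10 (GRCm38) reference of 1 site, forward strand, 5′ to 3′, read from the RefSeq C57BL/6J genome. Capitals mark bases inside a footprint of both libraries. The bases of the CAST/EiJ parent are not shown. The first 6 are the sites of highest signal, scaled to each library's median, among those with a footprint in both libraries and no 32-base word occurring elsewhere in the genome. The last 2 are the strongest such sites nearest to a red cell gene and to a myeloid gene of the fixed lists.
Rad51b, chr12:79612781-79612980: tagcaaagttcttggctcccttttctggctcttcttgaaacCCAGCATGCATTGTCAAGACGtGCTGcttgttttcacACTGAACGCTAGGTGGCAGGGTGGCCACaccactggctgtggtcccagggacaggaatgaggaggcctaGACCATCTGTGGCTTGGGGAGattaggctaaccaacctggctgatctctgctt
Vti1a, chr19:55545641-55545820: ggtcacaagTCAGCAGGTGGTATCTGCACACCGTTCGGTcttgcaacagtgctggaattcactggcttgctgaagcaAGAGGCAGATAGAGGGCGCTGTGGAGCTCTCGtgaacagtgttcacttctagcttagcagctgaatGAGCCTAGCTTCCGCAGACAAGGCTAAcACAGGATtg
Nfe2l3, chr6:51168141-51168320: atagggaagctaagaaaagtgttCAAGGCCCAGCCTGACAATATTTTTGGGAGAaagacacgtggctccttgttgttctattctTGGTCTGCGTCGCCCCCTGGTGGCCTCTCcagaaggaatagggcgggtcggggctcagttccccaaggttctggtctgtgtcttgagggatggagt
Atp10a, chr7:58399161-58399340: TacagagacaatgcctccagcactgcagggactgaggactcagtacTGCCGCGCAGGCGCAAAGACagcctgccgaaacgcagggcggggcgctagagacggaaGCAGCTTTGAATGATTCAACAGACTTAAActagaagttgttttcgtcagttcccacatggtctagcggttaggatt
Clvs1, chr4:9097161-9097300: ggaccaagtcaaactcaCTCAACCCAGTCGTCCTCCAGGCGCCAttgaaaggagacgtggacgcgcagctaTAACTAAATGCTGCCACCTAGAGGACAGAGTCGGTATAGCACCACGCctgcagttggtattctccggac
Ldhal6b, chr17:5252561-5252720: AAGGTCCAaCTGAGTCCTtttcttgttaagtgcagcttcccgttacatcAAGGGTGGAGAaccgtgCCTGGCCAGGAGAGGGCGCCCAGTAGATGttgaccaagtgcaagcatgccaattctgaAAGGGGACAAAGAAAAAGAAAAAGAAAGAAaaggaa
Zfpm1, chr8:122163121-122163320: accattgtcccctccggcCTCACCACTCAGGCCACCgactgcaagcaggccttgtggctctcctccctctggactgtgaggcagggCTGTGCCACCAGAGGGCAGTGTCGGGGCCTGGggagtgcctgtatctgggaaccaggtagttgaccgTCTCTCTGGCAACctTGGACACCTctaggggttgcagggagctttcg
Maf, chr8:115398121-115398340: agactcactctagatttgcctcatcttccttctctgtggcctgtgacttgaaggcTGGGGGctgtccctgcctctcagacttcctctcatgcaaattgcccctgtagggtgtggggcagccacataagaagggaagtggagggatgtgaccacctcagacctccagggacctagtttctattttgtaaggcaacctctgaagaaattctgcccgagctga

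The site in an intron of Rad51b, which encodes a protein of recombination repair, lay at chr12:79612781-79612980 and was the highest of the 589 remote sites without copied sequence. Its signal was 8.61 in replicate 1 and 4.79 in replicate 2, against medians over all 667 remote sites of 0.518 and 0.352. The intronic site of Vti1a, a SNARE protein of vesicle fusion, at chr19:55545641-55545820, had 7.89 and 3.10. The intergenic site at chr6:51168141-51168320 had 7.41 and 2.92, with the microRNA gene Mir148a 102 kb away as its nearest TSS and Nfe2l3, a basic leucine zipper factor, as its nearest coding gene at 264 kb. All 3 signals stood far above the 75th percentile of remote sites, 0.928 and 0.559, in both libraries.

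The intergenic site at chr7:58399161-58399340, 119 kb from the nearest GENCODE TSS and 257 kb from Atp10a, a phospholipid-transporting ATPase, had 6.05 and 3.55. The RefSeq annotation, which was not part of the choice, places the start of a glutamate tRNA gene (n-TEttc7) 64 bp from its midpoint. It was the only remote site within 500 bp of a RefSeq tRNA start. Among the sites at 5 to 100 kb, 131 (0.459%) were. The site at chr4:9097161-9097300 between Chd7, a chromatin remodeller, and Clvs1 had 6.29 and 3.34. The site at chr17:5252561-5252720, in an intron of Arid1b, a subunit of the BAF remodelling complex, had 4.93 and 2.29. The start of Ldhal6b was closer to it than that of Arid1b, so it is counted under Ldhal6b.

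A consensus for CTCF was searched on both strands. It is named without its letters because it needs ambiguity codes. The 6 strongest sites held 1 exact match, at Nfe2l3 (bases 96 to 107 of the printed sequence, counted from its 5′ end, reverse strand). With at most 1 mismatch 3 of these 6 held it, and with at most 2 mismatches 5 of 6. The best match of Clvs1, at bases 84 to 95, and that of Ldhal6b, at bases 72 to 83, had 1 mismatch, and those of Rad51b at bases 84 to 95 and Vti1a at bases 10 to 21 had 2. All 12 bases of each of these 5 matches lay in footprints of both libraries. The sequence with the tRNA start had no match within 3 mismatches. The printed site with Zfpm1 as its nearest coding gene, 119 kb away, had an exact match at bases 92 to 103, also covered in both libraries. Zfpm1 encodes FOG1, the partner of GATA factors in red cells. The Maf site had only 6 bases in footprints of both libraries, and its best match had 3 mismatches. The mismatch limits were chosen after the sequences were seen.

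Across all 667 remote sites, 79 (11.8%, 9.49 to 14.5) held the exact CTCF consensus. Windows of the same length placed 1 kb to either side held it in 0.0750% of cases. At 5 to 100 kb the share was 12.5% and that of the flanks 0.242%, and this share lay inside the interval of the remote one. With up to 1 mismatch the remote share was 37.3% (33.6 to 41.1) against 36.8%, with flanks at 0.825% and 2.73%. With up to 2 mismatches it was 58.6% against 60.2%, and the flanks held it in 11.1% and 18%. Of the 79 exact matches, 78 overlapped a footprint of at least 1 library and 66 (83.5%) a footprint of both. At 5 to 100 kb, where sites were stronger, 95.6% of 3562 sites with the consensus had it in footprints of both. Sites with the exact consensus had median signals of 0.769 and 0.486 in replicates 1 and 2, and sites without it 0.493 and 0.343.

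The signal of remote sites differs from that of the comparison class, so the CTCF share was also read within the signal quartile classes of the sites at 5 to 100 kb. Exact matches were in 8.24% of 364 remote sites of the lowest class, in 11.9% of 135 in the second, in 22.7% of 119 in the third and in 12.2% of 49 in the highest. At 5 to 100 kb these shares were 5.36%, 6.81%, 12% and 25.7%. The remote share was thus higher in the 3 lower classes and lower in the highest, where its interval ran from 4.63 to 24.8%. With up to 1 mismatch it was 28.6%, 40.7%, 54.6% and 51.0%, against 21.4%, 26.8%, 39.5% and 59.5%. The exact match also went with width. In the third class at 5 to 100 kb, 18.3% of sites up to 200 bp and 1.65% of wider ones held it. Weighted to the signal and width of the remote sites, the share of the nearer ones was 9.07%, against 11.8% of remote sites. These orders were not tested.

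**Figure D1:**
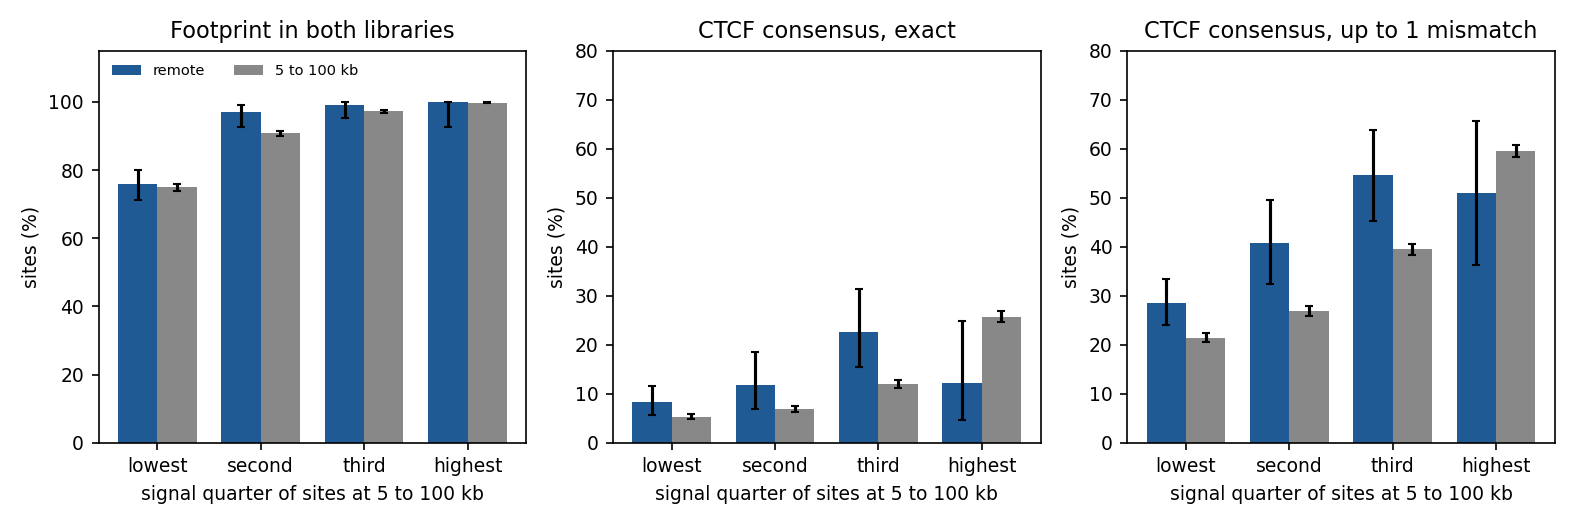
Share of sites (y axis, percent) with a footprint in both libraries, with the exact CTCF consensus and with that consensus at up to 1 mismatch, by signal quartile class of the sites at 5 to 100 kb (x axis). Blue bars are remote sites, grey bars sites at 5 to 100 kb and lines exact binomial 95% intervals. The remote footprint share goes from 75.8% to 100% across the classes, and the exact CTCF share is highest, at 22.7%, in the third.

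Consensus letters of blood regulators were searched on both strands in the same way. A match is a description of letters and not a bound site. The GATA consensus, AGATAAA or AGATAAG or TGATAAA or TGATAAG, was in 11.7% of remote sites (9.35 to 14.4) and in 14.9% of their flanks. At 5 to 100 kb it was in 11.9% of sites and 12.4% of flanks. The E-box of TAL1, CAGATG, was in 21.6% of remote sites, 14.6% of flanks and 20.5% of sites at 5 to 100 kb. The Kruppel-like consensus, CCACACCC or CCCCACCC, was in 8.85%, 4.27% and 9.73%, in the same order. The ETS consensus, CAGGAAGT or CCGGAAGT, was in 5.25%, 0.975% and 5.38%, and that of PU.1, GAGGAAGT, which shares its GGAAGT core with the ETS letters, in 4.35%, 0.900% and 5.14%. The AP-1 consensus, TGACTCA or TGAGTCA, was in 3.6% of remote sites (2.32 to 5.31) and 3.0% of flanks, and in 5.55% of sites at 5 to 100 kb. Remote sites were richer in G and C than their flanks, with quartiles of 46.2 and 53.8%, both above the flank median of 43.2%, and the sites at 5 to 100 kb had medians of 51.1% and, in flanks, 46%.

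Remote sites were found less often in both libraries than sites nearer to genes. Of 2856 merged sites over 100 kb from a TSS, 667 held a peak of both libraries (23.4%, 21.8 to 25), 1642 were seen in replicate 1 only and 547 in replicate 2 only. The share was 44.9% (44.5 to 45.3) at 5 to 100 kb and 49.9% over all merged sites. It was 47.4% at 5 to 10 kb, 47.1% at 10 to 20 kb, 43.4% at 20 to 50 kb, 35.1% at 50 to 100 kb, 24.8% at 100 to 200 kb and 17.9% beyond 200 kb. Signal moved with this share: 1469 of the 2309 remote sites with a peak in replicate 1 fell in the lowest signal quartile class of its peaks at 5 to 100 kb. In that class 5.99% of the remote and 7.14% of the nearer sites were found in replicate 2. In the other classes, from low to high, 50.1%, 82.7% and 98.2% of remote sites were found, against 36.2%, 69.4% and 97.8%. The shorter of the 2 peak lists deposited for each library gave a smaller difference. The share in both was then 48.5% (44.9 to 52.2) for remote and 51.6% for nearer sites.

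The signal of the 667 sites ran from 0.0863 to 14.4 in replicate 1, with quartiles of 0.330 and 0.928, and from 0.100 to 8.13 in replicate 2, with quartiles of 0.247 and 0.559. The medians of 0.518 and 0.352 compared with 0.889 and 0.565 at 5 to 100 kb, a ratio of 0.582 in replicate 1 and 0.622 in replicate 2 (0.602 ± 0.0282, SD, n = 2). The remote median was lower in both libraries, and the distributions overlapped widely. The signals of the libraries ranked the remote sites alike, with Spearman's rho of 0.829 over 667 sites and 0.875 over the 28554 nearer ones. Both values come from sites chosen for a peak in each library, and neighbouring sites are not independent.

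**Figure D2:**
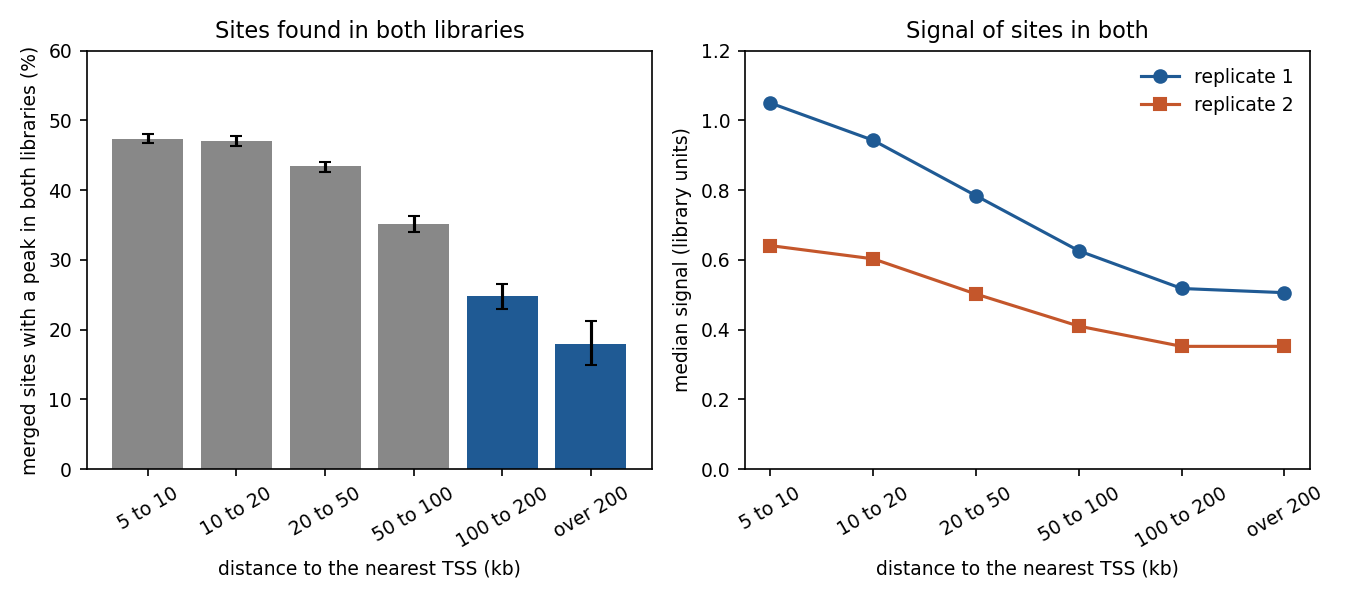
Share of merged sites with a peak in both libraries (left, y axis in percent, bars with exact binomial 95% intervals, blue beyond 100 kb) and median signal of sites in both (right, library units, circles replicate 1, squares replicate 2) by distance to the nearest TSS in kb. The share goes from 47.4% at 5 to 10 kb to 17.9% beyond 200 kb, and the medians from 1.05 and 0.641 to 0.506 and 0.352.

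On the log2 scale, signal in replicate 1 minus signal in replicate 2 had a median of 0.60 (SD 0.58) over remote sites and 0.71 over sites at 5 to 100 kb. The median over all 73150 sites was 0.84, a value that includes the difference in scale between the libraries. Against it, 442 of 667 remote sites (66.3%, 62.5 to 69.9) and 17130 of the 28554 nearer ones lay to the side of replicate 2. The farthest to that side was a site in an intron of Camk1d, a calcium/calmodulin-dependent kinase, at chr2:5451761-5451940, with 0.353 in replicate 1 and 1.05 in replicate 2. A site in an intron of Nrp1, a co-receptor of semaphorins and VEGF, at chr8:128491821-128492020, had 0.810 and 2.09. At the other end, an intergenic site nearest to Bcl11a, a repressor of fetal globin genes, at chr11:24305161-24305360, had 2.03 and 0.507. These 3 sites were the extremes or near-extremes of 1 ratio, so their spread describes the range of the list. Sites with the exact CTCF consensus had a median log2 ratio of 0.81 and the other remote sites 0.58, and sites with the GATA consensus had 0.54 against 0.61. At 5 to 100 kb the same medians were 0.84 and 0.69 for CTCF and 0.54 and 0.73 for GATA.

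**Figure D3:**
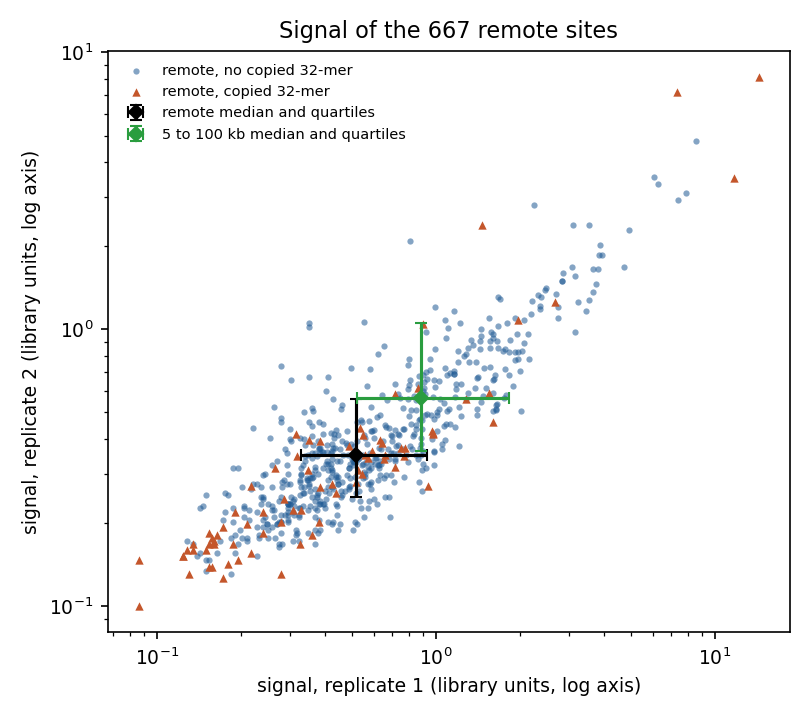
Signal of each of the 667 remote sites in replicate 1 (x axis) and replicate 2 (y axis), both in library units on log axes. Circles are sites with no copied 32-base word, triangles sites with at least 1, and diamonds with lines the medians and quartiles. The remote median (0.518 and 0.352) lies below that at 5 to 100 kb (0.889 and 0.565) on both axes, and 3 of the highest points are triangles.

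The highest remote signal belonged to sites with copied sequence, whose reads may come from more than 1 place. The site at chr1:122357141-122357300, 789 kb from Ddx18, had 14.4 and 8.13, and 27 of its 129 words of 32 bases occurred elsewhere. At chr1:102628181-102628340 the signal was 7.34 and 7.16, with 59 of 129 words copied. The site in an intron of Il1rapl1, an interleukin-1 receptor family member of synapses, at chrX:87238321-87238460, had 11.7 and 3.51, with 12 of 109 words copied, up to 11808 times in the genome. In all, 78 of 667 remote sites (11.7%, 9.35 to 14.4) held a copied word against 13.9% at 5 to 100 kb, and 6 (0.900%) had 50% or more of their words copied against 1.46%. The part of copied sequence in these signals was not tested.

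A footprint in both libraries was present at 574 of the 667 remote sites (86.1%, 83.2 to 88.6), against 90.7% at 5 to 100 kb and 88.0% over all sites in both. Another 58 had one in replicate 1 alone, 21 in replicate 2 alone and 14 in neither library. The 14 had signals up to 0.514 in replicate 1 and 0.339 in replicate 2, both at a Wwox site. Within signal quartile classes the remote share was 75.8%, 97%, 99.2% and 100% from low to high, against 74.9%, 90.8%, 97.2% and 99.8%, so the lower overall share went with the 364 sites (54.6%) in the lowest class. Weighting the nearer sites to the signal and width of the remote ones gave 84.1%. Remote sites held 2.83 footprints on average in replicate 1 and 2.28 in replicate 2, against 3.27 and 2.74. With the same weighting the nearer sites held 2.80 and 2.16. Remote sites were narrower, with a median width of 180 bp against 200 bp. Of the footprints in remote sites, 50.2% of 1885 in replicate 1 (47.9 to 52.5) and 67.9% of 1518 in replicate 2 (65.4 to 70.2) overlapped one of the other library. The shares at 5 to 100 kb were 54.3% and 72%. These intervals treat footprints of the same site as separate and are therefore too narrow. The shares were not weighted to signal or width, and their difference was not tested.

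The nearest coding genes of the 667 sites numbered 362, 1.65% of 21911, and the median distance to the coding TSS was 192 kb, with a maximum of 2140 kb. The sites were spread unevenly: 228 genes had 1 site, 69 had 2, 65 had 3 or more, and the 26 genes with 5 or more held 171 sites. Of the sites, 381 (57.1%) were intergenic, 270 (40.5%) lay in introns of coding genes, 6 in introns of other genes and 10 in exons, against 47.4%, 43.2%, 4.81% and 4.56% at 5 to 100 kb. The 280 sites within coding genes fell in 127 genes with a median length of 492 kb. A gene must be long to hold a site over 100 kb from a TSS, so the counts per gene follow in part from the rule. The nearest TSS of any biotype belonged to a coding gene for 258 sites, a lincRNA for 134 and a processed pseudogene for 117.

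Rad51b, Wwox and Camta1 had 12 remote sites each, all intronic. In Rad51b the signal of the 12 ran from 0.386 to 8.61 in replicate 1 and from 0.255 to 4.79 in replicate 2. In a stretch of 2.76 kb at chr12:79610761-79613520, 5 of them lay side by side, with 0.799 and 0.741 at the first, 0.900 and 1.04 at the second, 3.87 and 2.01 at the third, 8.61 and 4.79 at the fourth and 1.68 and 1.31 at the fifth. The fourth is the site printed above, and the second held copied words. Wwox, an oxidoreductase with WW domains, had the largest group: 7 sites in 5.60 kb at chr8:114878661-114884260, with signals from 0.379 to 2.75 in replicate 1 and from 0.301 to 1.10 in replicate 2. Footprints of both libraries were present at 5 of these 7, against 86.1% of remote sites and 88.0% of all sites in both. The 12 sites of Camta1, a calmodulin-binding transcription activator, had medians of 0.855 and 0.618, and maxima of 1.68 and 1.00.

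Rora, a nuclear receptor needed by innate lymphoid cells and Purkinje cells, had 10 intronic sites, of which the highest had 2.01 and 0.708. Nfe2l3 and Cdh26, a cadherin, had 8 each, all intergenic, with medians of 0.795 and 0.496 and of 1.25 and 0.484. Ndufa4, a subunit of cytochrome oxidase, also had 8, at 114 to 1270 kb from its start. Bmper, a BMP-binding secreted protein, had 7. Fam49a, the cation channel gene Trpm3, Mef2c and Nrp1 had 6 each. The next 14 genes had 5, so a list of 15 cannot be closed without a tie. The promoter was open in both libraries at 239 of the 362 nearest coding genes (66.0%, 60.9 to 70.9), against 71.6% of 9481 genes nearest to a site at 5 to 100 kb and 60.5% of all coding genes. Of the genes with most sites, Rad51b, Wwox, Camta1 and Rora had open promoters, and Cdh26 and Bmper did not.

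**Figure D4:**
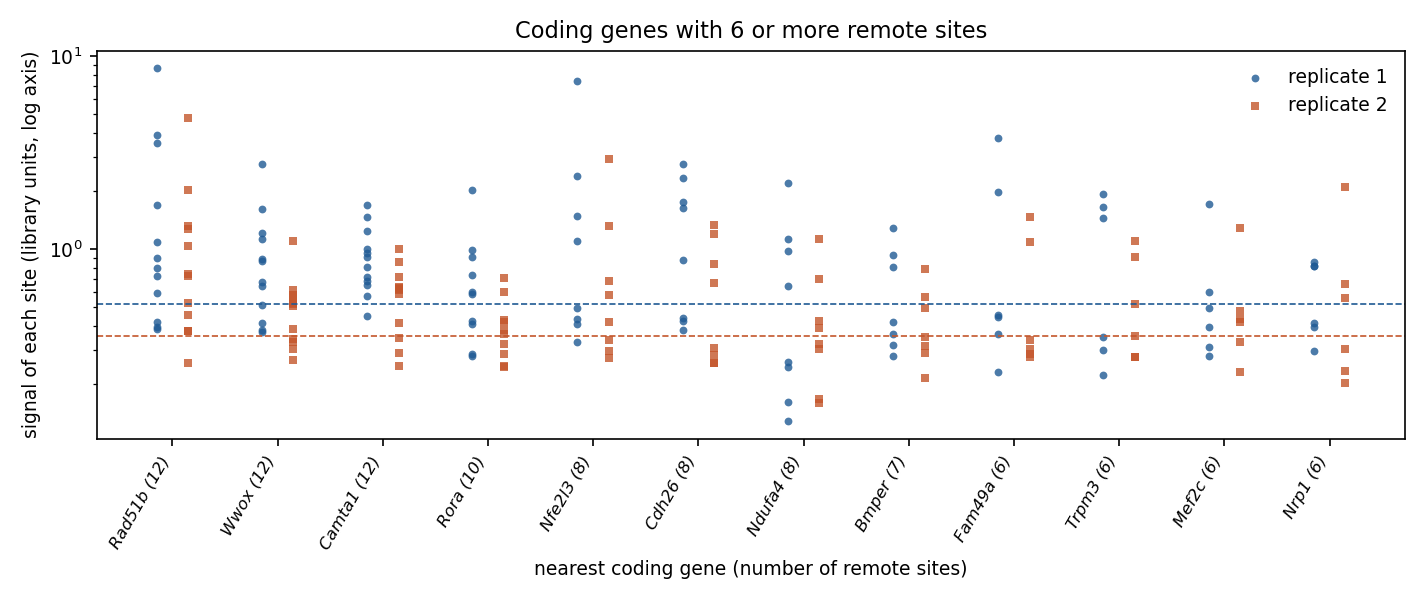
Signal of every remote site of the 12 coding genes with 6 or more of them (y axis, library units, log axis), circles for replicate 1 and squares for replicate 2, with the number of sites in brackets on the x axis. Dashed lines are the medians over all remote sites, 0.518 and 0.352. The highest site is at Rad51b (8.61 and 4.79), and the sites of each gene spread over both sides of the dashed lines.

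Among the red cell genes of the lists, 5 of 20 were nearest to a remote site, with 14 sites (2.10% of remote sites, against 0.294% of those at 5 to 100 kb). The strongest of these sites, at chr8:122163121-122163320, had 3.96 and 1.85. It lay in an intron of a coding gene, 119 kb upstream of the start of Zfpm1. Its nearest TSS of any gene was that of Zfp469, 106 kb away. Sox6, a partner in silencing embryonic globin, had 4 sites, of which those at chr7:115366981-115367180 (2.04 and 0.837) and chr7:115453381-115453600 (1.78 and 0.716) were highest. Bcl11a and Nfia, a nuclear factor of red cell commitment, had 2 each. Of the 14, 12 had footprints in both libraries, near the 86.1% of all remote sites and the 88.0% of all sites in both.

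Of the myeloid genes, 3 of 22 were nearest to 9 sites (1.35% against 0.280%). Maf, a transcription factor of macrophages and T cells, had 5, at 293 to 478 kb from its start. Signals were 2.08 and 0.888 at chr8:115414241-115414460 and 1.81 and 1.05 at the printed site, chr8:115398121-115398340. The 2 farthest of the 5, at 473 and 478 kb, lay in introns of Wwox. Klf4, a monocyte factor, had 3 that reached 1.97 and 0.779, and Zeb2, a zinc-finger repressor, had 1 at 0.180 and 0.142, with copied words. Ebf1, the early factor of B cells, was the only one of 22 B cell genes (4.55%, against 1.65% of all coding genes). It had 2 sites in its own introns (0.300% against 0.399%). They had 0.803 and 0.486, and 0.765 and 0.519. Tox and Gata3, factors of T cell development, had 2 each among 22 T and NK cell genes (0.600%, 0.164 to 1.53, against 0.245%). The higher Tox site had 1.41 and 0.515, and the Gata3 sites lay 124 and 1119 kb from Gata3.

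Of 24 stem and progenitor genes, 3 were nearest to 11 sites (1.65% against 0.578%). Mef2c, a MADS-box factor of lymphoid and myeloid progenitors, had 6 upstream sites, 121 to 604 kb from its start. The nearest TSS of any gene lay 116 to 166 kb from these sites. The site at chr13:83344581-83344980, 159 kb from Mef2c, had 1.70 and 1.28 and 6 and 7 footprints. Myc, the growth regulator, had 4 sites 426 to 471 kb from its start, with signals up to 0.611 and 0.461, and Runx1 had 1 with 0.338 and 0.502. Among 25 stroma, vessel and patterning genes, only Cdh5, the cadherin of endothelium, was nearest to any, with 2 sites (0.300% against 0.238%).

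Genes outside blood were nearest to remote sites as well. Of 31 developmental genes 8 held 13 sites (1.95% against 0.196%), led by Sox5, whose site at chr6:143751321-143751500 had 2.36 and 1.21. Of 39 neuronal adhesion and synapse genes 12 held 18 sites (2.70% against 0.270%), with 11.7 and 3.51 at Il1rapl1 and 0.900 and 0.364 at Erbb4, a neuregulin receptor. None of the 7 genes of other tissues was nearest to one. The lists with the higher remote shares thus ran across blood and non-blood genes, and how much room each gene has beyond 100 kb of a TSS was not taken into account. Of 667 remote sites 11 (1.65%) lay within 500 bp of a RefSeq transcript start that the chosen annotation does not place there, against 3.03% at 5 to 100 kb. Of these 11 starts, 9 were of long non-coding RNAs. In all, 337 remote sites (50.5%) were also over 100 kb from every RefSeq start, against 3.36% at 5 to 100 kb.

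Remote sites had fewer neighbours. Another site in both libraries lay within 10 kb of 229 of them (34.3%, 30.7 to 38.1), against 63.3% at 5 to 100 kb, and 276 (41.4%) had none within 50 kb against 7.17%. The median gap to the next site was 34.0 kb against 5.89 kb. A site over 100 kb from every TSS has no promoter site nearby by the rule itself, so this comparison is a description. Remote sites joined within 10 kb formed 86 groups of 2 or more that held 220 sites, and 447 stood alone. Groups of 3 or more numbered 28, with 104 sites. After Wwox, the groups with 5 sites included those of Rad51b, of the Ldhal6b and Arid1b region (14.1 kb, with signal up to 4.93 and 2.29), of the intergenic space between Fam49a and Mycn (11.4 kb, up to 3.75 and 1.46), and of Gse1 (7.00 kb, up to 3.16 and 1.49). Further groups of 5 were at Xylt1 and Camta1. Stretches over 100 kb from any TSS made up 241 Mb, 9.11% of the called bases, and held 2.76 sites per Mb, against 15.9 in the 1793 Mb at 5 to 100 kb. The X chromosome had 13 remote sites (0.830 per Mb) and the Y chromosome 0. Sites at 5 to 100 kb were also sparsest on these chromosomes, with 6.48 per Mb on X and fewer on Y. Chromosome 8 had the most remote sites, 78 (5.33 per Mb), and chromosome 19 the most per Mb (5.60, with 27 sites).

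**Figure D5:**
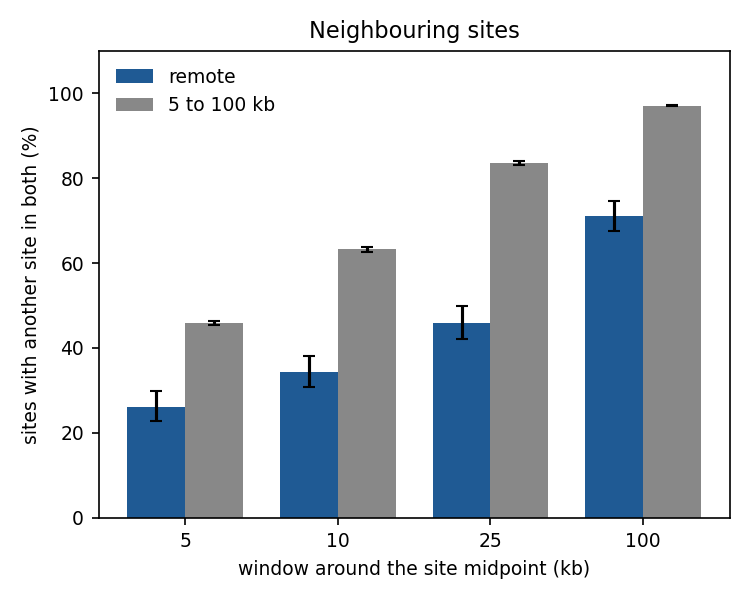
Share of sites (y axis, percent, with exact binomial 95% intervals) that have another site in both libraries within 5, 10, 25 or 100 kb (x axis), for remote sites in blue and sites at 5 to 100 kb in grey. Within 10 kb the shares are 34.3% and 63.3%, and within 100 kb they are 71.1% and 97.1%.

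The choice of members turned on the 100 kb limit. The bracketed values are the distance to the nearest TSS of any biotype, which may belong to another gene than the nearest coding gene named, and the signals of replicates 1 and 2. Just inside the limit were sites whose nearest coding genes were Akap6 (100075 bp, 0.510 and 0.331), Sox5 (100123 bp, 2.36 and 1.21), Arid1b (100159 bp, 0.420 and 0.423), Ano5 (100204 bp, 0.203 and 0.268) and Gse1 (100365 bp, 0.983 and 0.653). The nearest TSS belonged to the named gene at Akap6 and Gse1, and at Efna5 and Immp2l among those that follow. Just outside were sites with the nearest coding genes Kcnmb2 (99966 bp, 0.319 and 0.226), Fam204a (99838 bp, 1.27 and 0.858), Efna5 (99823 bp, 0.653 and 0.419), Sox5 (99730 bp, 0.949 and 0.582) and Immp2l (99691 bp, 0.281 and 0.205). The farthest remote site, at chr4:77558921-77559080 in an intron of Ptprd, a receptor phosphatase, was 600503 bp from the nearest TSS with 0.383 and 0.368, and the next 2, with Bmp2 and Cntnap5a as nearest coding genes, were 445410 and 442693 bp from any TSS with 0.401 and 0.226, and 0.0863 and 0.147.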

How the data were processed

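DNase-seq of 2 libraries was analysed from the deposited lists. Peaks carried a signal per peak and footprints a constant value, as deposited by the authors; footprints are therefore counted and not ranked. The longer of the 2 deposited peak lists of each library was used, and the build is mm10 per the labels. The sources used here do not name the aligner or the callers. Each library's lists were treated as its own.

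Peaks sharing at least 1 bp were merged, a site took its highest signal per library, and distances ran from its midpoint to GENCODE M21 starts. Promoters reached 500 bp to each side of a start. Footprints counted when they shared at least 1 bp with a site. Reference bases, masking and copied 32-base words came from RefSeq GRCm38.p6. Consensus letters (17) and gene lists (9, with 212 of 213 genes matched) were searched on both strands or matched by symbol. Each library's signal was divided by its median over sites in both before sites were ranked or placed in quartile classes. Functions were tested on simulated data. Tools were Python 3.11.15, numpy 2.4.6, pandas 2.3.3, scipy 1.17.1 and matplotlib 3.10.9.

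Genes were named by number of remote sites (15 genes, with ties), up to 4 per list, the strongest sites with and without copied words, 5 sites on either side of the limit, 5 groups and the 3 farthest sites. Others, such as the extremes of the library ratio, were chosen after their values were seen. The members, lists and rules were chosen with earlier results of these data known. Alternatives covered annotation, peak list, library, distance, copied sequence, overlap, merging and mismatches. Values of 1 gene that the rule names are not reported here.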

Additional observations from a re-analysis of the deposited data

How the results depend on the processing

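No paired analysis was possible because the study has 1 group. Read depth is unknown, so a site missing from a library may be closed or below its limit. The signal ratio stayed below 1 in all 10 settings and fewer remote sites had a neighbour in all 9, but the footprint share was below that of nearer sites in 9 of 12 settings and the CTCF share in 7 of 12. With starts of coding genes only, there were 4565 remote sites nearest to 1595 genes. The share in both libraries was 30.3% (47.8% nearer), and 42.7% had a neighbour within 10 kb (67.1% nearer). With the shorter list there were 368 sites and 230 genes. The share in both was 48.5% (44.9 to 52.2), against 51.6% at 5 to 100 kb. The other shares were 98.4% with footprints (97.3% nearer), 27.2% with a neighbour (53.9% nearer) and 15.5% with CTCF (17.0% nearer). With one library left out, and footprints of the other alone, the site number was 1217 to 2314, genes 568 to 796 and signal ratio 0.416 to 0.528. The footprint share was 70.2% without replicate 1 and 66.7% without replicate 2, against 85.6% and 83.7% at 5 to 100 kb. In the same order, the CTCF share was 7.40% and 4.24%, against 10.1% and 6.99%. The neighbour share was 31.1% and 35.3%, against 66.7% and 72.9%. The stronger part of each library gave 99.4% with footprints (98.4% nearer) and 20.1% with CTCF (18.9% nearer). Weighted to the signal and width of the nearer sites, the remote footprint share was 93.0% against 90.7%. The ratio was 0.667 beyond 50 kb. The CTCF share was 17.8% beyond 200 kb (107 sites, 11.0 to 26.3), against 12.5% at 5 to 100 kb, a value inside that interval. Windows of 5 and 25 kb gave 26.2% and 46.0%. Added after seeing the data, sites also over 100 kb from RefSeq starts numbered 337, with a ratio of 0.518 and 27.3% with a neighbour, and the CTCF share was 37.3% with 1 mismatch and 58.6% with 2. The cause of these shifts was not tested. The other 23 of 55 values stayed within their limits.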
